A study of Mus musculus with 22 samples.

Results

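Complement is a system of plasma proteins and cell receptors, and 9 of its genes were followed here: the C1q chains C1qa, C1qb and C1qc, the properdin gene Cfp, the components C3, C4b and Cfb, and the anaphylatoxin receptors C5ar1 and C3ar1. They were chosen by gene symbol. Among the 12259 genes measured in liver were 7 of them, and among the 15971 measured in lung were 8. C5ar1 was listed in the lung table only, and Cfb was not analysed here. Poly-A RNA had been sequenced as read pairs from liver and lung of male mice on a C57BL/6J background, 14 weeks old and fed normal chow. One set had breathed benzene, a solvent that is oxidised in liver to reactive products, at 50 ppm, daily for 6 hours, with 5 exposure days per week and 6 weeks in all. The other set had breathed air cleaned by carbon and HEPA filters, and no genotype other than the strain is given for either. There were 5 air and 5 benzene liver libraries, and 6 air and 6 benzene lung libraries, with 9.46 to 12.71 M (mega) reads per liver library and 8.3 to 11.92 M per lung library. Whether each library is a different mouse is not stated in the labels, and the p-values measure only the spread between these libraries, which may be technical.

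In the classical pathway, C1q binds immune complexes, apoptotic cells and other surfaces and leads to cleavage of C4 and then of C3. In the alternative pathway, properdin holds together the enzyme that cleaves C3. Most of the C3 and C4 in plasma is made by hepatocytes, while C1q is made mainly by macrophages and dendritic cells and properdin by neutrophils, monocytes and other leukocytes. C3a and C5a, the small fragments released from C3 and C5, act on the receptors encoded by C3ar1 and C5ar1, which myeloid cells carry.

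In benzene livers all 3 C1q chains and Cfp rose, while C3 and C4b, the abundant members there, did not pass the test. In benzene lungs Cfp and C1qc fell, and no member rose. Of the 6 members tested in both tissues, C1qb, C1qc, Cfp and C4b differed in their response between tissues, each with the higher change in liver. Levels below are the deposited normalized values headed CPM (counts per M reads), as mean ± SD over libraries. Their scaling to reads differs between libraries, so they are not exact counts per M reads. Changes are differences of mean log2(CPM + 1), benzene minus air, given ± SE. Adding 1 makes the change of a gene at a low level look smaller. A gene was called at a Benjamini-Hochberg adjusted p under 0.05 by limma over all genes of a tissue.

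One lung library was unlike the rest: air replicate 5 had no read for 894 genes, against 17 to 61 such genes in the other 5 air lungs. It also held the highest C1qa and the lowest C1qb of all 12 lung libraries. The members' lung changes are therefore given with it and without it.

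The 3 C1q genes lie side by side on the minus strand of chromosome 4 within 18.7 kb (GRCm38, GENCODE M21). C1qb (ENSMUSG00000036905) is at 136880129 to 136886187, C1qc (ENSMUSG00000036896) at 136889804 to 136893065 and C1qa (ENSMUSG00000036887) at 136895917 to 136898803. Cfp (ENSMUSG00000001128) is at 20925454 to 20931555 on chromosome X. C3 (ENSMUSG00000024164) is at 57203970 to 57228136 on chromosome 17, and C4b (ENSMUSG00000073418) at 34728380 to 34743882 on the same chromosome. C4a, the near copy of C4b, lies 65.2 kb away. Of the 150-base windows in C4b transcripts, 7.48% occur unchanged in C4a, so a small share of reads could belong to either gene. No such window was shared between any other members. C5ar1 (ENSMUSG00000049130) is at 16246743 to 16259540 on chromosome 7, and C3ar1 (ENSMUSG00000040552) at 122847138 to 122856161 on chromosome 6.

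The promoters of C1qb, C1qc and Cfp, which rose in liver, are printed beside that of C3, which did not, to show the DNA in front of genes with unlike responses. RefSeq (GRCm38.p6) gave a promoter for 6 of the 9 members, C1qa not among them, reaching from 250 bases before to 50 bases after the gene start. The windows are chr4:136886151-136886450 for C1qb, chr4:136892865-136893164 for C1qc, chrX:20931506-20931805 for Cfp and chr17:57228087-57228386 for C3, all on the minus strand and written 5′ to 3′. Capitals mark matches, on either strand, to GAGGAA, the core bound by the myeloid factor PU.1, or to TTGCNNAA, a form of the site of the C/EBP factors. TTCNNNGAA, the core bound by STAT factors, was also searched.
C1qb: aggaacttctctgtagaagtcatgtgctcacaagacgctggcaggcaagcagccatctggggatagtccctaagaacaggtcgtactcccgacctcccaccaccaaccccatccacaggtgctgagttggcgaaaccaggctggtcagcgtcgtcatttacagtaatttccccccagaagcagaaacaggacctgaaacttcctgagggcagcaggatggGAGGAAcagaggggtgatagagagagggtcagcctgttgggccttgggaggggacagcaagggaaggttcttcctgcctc
C1qc: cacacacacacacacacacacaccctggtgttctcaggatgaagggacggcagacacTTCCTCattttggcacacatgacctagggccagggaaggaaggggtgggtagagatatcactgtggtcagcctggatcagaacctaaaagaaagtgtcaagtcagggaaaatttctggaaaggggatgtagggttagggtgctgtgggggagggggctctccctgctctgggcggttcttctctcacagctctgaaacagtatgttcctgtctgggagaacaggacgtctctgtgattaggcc
Cfp: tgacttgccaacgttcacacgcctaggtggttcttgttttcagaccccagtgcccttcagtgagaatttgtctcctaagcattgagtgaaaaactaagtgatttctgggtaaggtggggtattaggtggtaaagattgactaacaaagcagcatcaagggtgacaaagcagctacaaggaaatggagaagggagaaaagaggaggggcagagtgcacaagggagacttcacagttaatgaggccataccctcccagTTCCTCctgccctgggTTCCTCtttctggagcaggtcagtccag
C3: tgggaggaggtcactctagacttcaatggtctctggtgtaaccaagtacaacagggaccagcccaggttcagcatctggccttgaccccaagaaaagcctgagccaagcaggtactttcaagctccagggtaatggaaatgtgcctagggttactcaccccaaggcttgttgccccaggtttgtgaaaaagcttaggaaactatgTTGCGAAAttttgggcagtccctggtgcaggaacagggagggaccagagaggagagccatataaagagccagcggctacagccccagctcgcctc

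GAGGAA was found once in the C1qb window, 30 bases before the start, and once in the C1qc window, 193 bases before it, there on the opposite strand. The Cfp window held it at 2 places, both on the opposite strand and after the start. The C3 window had no GAGGAA but a TTGCNNAA match 45 bases before the start. Neither of the C3ar1 and C5ar1 windows held any of the 3 motifs, and no member's window held TTCNNNGAA. GAGGAA is present in 28.3% of 32851 promoter windows of the same length, TTGCNNAA in 10.8% and TTCNNNGAA in 8.3%. These matches describe letters only, and whether any factor binds there was not tested. No matches overlapped each other.

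The liver comparison asked which of these transcripts differed after benzene. C1qa, C1qb and C1qc encode the 3 chains that together form C1q. For C1qa the air livers held 17.4, 24.9, 23.2, 21.3 and 17.2 CPM in replicates 1 to 5, and the benzene livers 41.4, 32.5, 30, 47.9 and 30.9. Every benzene liver was above every air liver, with benzene replicate 4 the highest. The mean went from 20.8 ± 3.45 to 36.5 ± 7.82 (n = 5 and 5), a log2 change of 0.77 ± 0.14 (limma adjusted p = 0.00513).

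C1qb was at 11.5, 17.5, 16.9, 15.2 and 15.1 CPM in the air livers and at 27.4, 22.5, 25.1, 33.6 and 29.0 in the benzene livers. Again the groups did not overlap, and benzene replicate 4 was the highest. The log2 change was 0.81 ± 0.13 (limma adjusted p = 0.00155), from 15.2 ± 2.34 to 27.5 ± 4.2. C1qc was at 14.0, 12.9, 18.3, 12.2 and 14.7 CPM in air and at 27.2, 20.9, 23.0, 31.5 and 21.5 in benzene. Its lowest benzene liver, replicate 2, was above its highest air liver, replicate 3. The mean rose from 14.4 ± 2.39 to 24.8 ± 4.45, a log2 change of 0.74 ± 0.13 (limma adjusted p = 0.00494). These values rested on 119 to 261 reads per chain and air library, and on 208 to 554 in benzene.

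Cfp encodes properdin, the positive regulator of the alternative pathway. Its air livers held 6.84, 12.0, 9.46, 10.1 and 7.63 CPM and its benzene livers 17.9, 10.9, 14.2, 19.3 and 16.1. Benzene replicate 2 lay below air replicate 2, and the other 4 benzene livers were above every air liver. The mean rose from 9.2 ± 2.04 to 15.7 ± 3.31, a log2 change of 0.71 ± 0.16 (limma adjusted p = 0.038). That call was lost when any of 7 of the 10 libraries was left out, namely air replicates 1, 3, 4 and 5 and benzene replicates 1, 3 and 5 (adjusted p up to 0.115), while the log2 change stayed between 0.62 and 0.82.

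**Figure D1:**
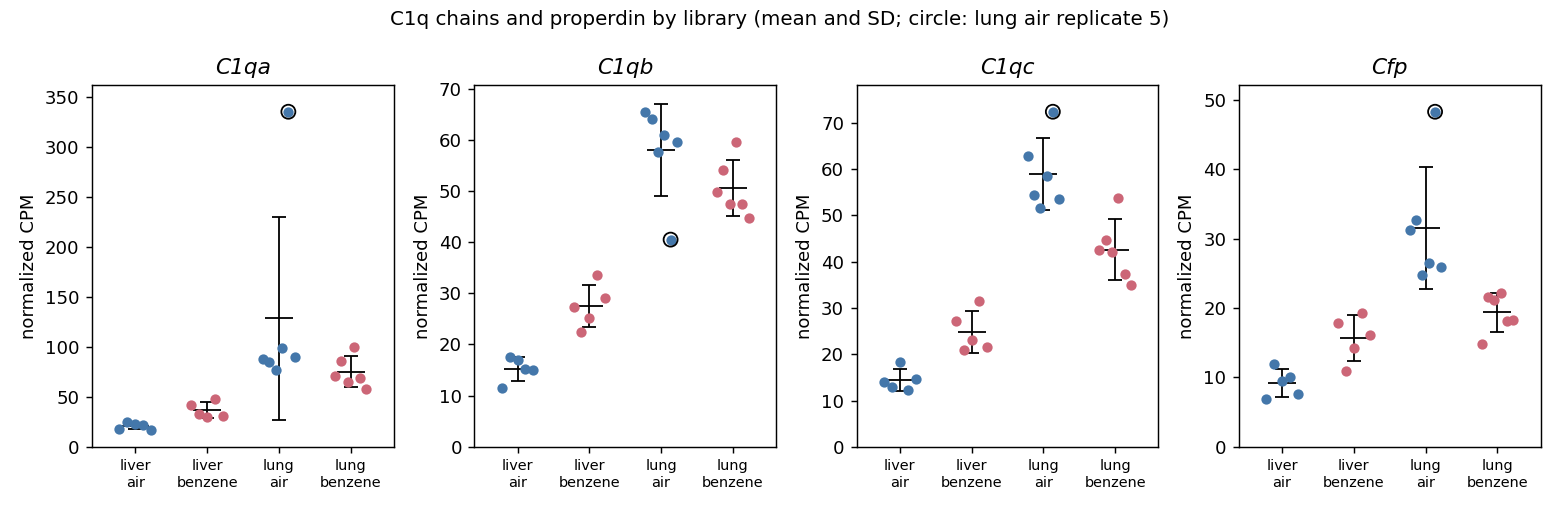
Normalized CPM of C1qa, C1qb, C1qc and Cfp in each library (points), with the mean and SD of each group (bars), for 5 air and 5 benzene livers and 6 air and 6 benzene lungs. The 3 C1q chains were higher in every benzene liver than in any air liver, and the circled lung air replicate 5 was at 334.8 for C1qa and 40.5 for C1qb.

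C3, the component that every complement pathway cleaves, was the most abundant member in liver. It was at 5135, 4733, 4710, 4580 and 4917 CPM in air and at 4255, 4852, 4909, 3479 and 4363 in benzene. The groups overlapped: benzene replicates 2 and 3 lay among the air livers, and benzene replicate 4 was the lowest of the 10. The log2 change was -0.15 ± 0.09, with a 95% interval of -0.34 to 0.04 (limma adjusted p = 0.516).

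C4b encodes the plasma component C4, which C1s cleaves after C1q has bound. The air livers held 988.8, 1084.5, 1071.2, 1055.8 and 1073.7 CPM and the benzene livers 1198.1, 1176.0, 1261.2, 1110.9 and 1186.4. All 5 benzene livers were above every air liver, by a small margin for replicate 4. The log2 change was 0.17 ± 0.06, with a 95% interval of 0.04 to 0.30, and did not pass (limma adjusted p = 0.229). C4a, its near copy and no member, was at 18.4 ± 2.19 in air and 15.5 ± 0.658 in benzene (log2 change -0.22, limma adjusted p = 0.37).

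C3ar1, the C3a receptor gene, was barely seen in liver. It was at 1.05, 0.108, 0.411, 0.489 and 0.643 CPM in air and at 0.652, 0.775, 2.34, 0.692 and 1.03 in benzene. The groups overlapped, and benzene replicate 3 was the highest. These values stand for 1 to 12 reads per air library and 8 to 30 per benzene library. The gene was below the filter on low values and was not tested.

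Of the 6 members tested in liver, 4 were called and all 4 were higher with benzene, where 0.819% of the 11968 genes tested were called higher and 1.55% were called either way. The median log2 change of all genes was 0.00163. The list is small and was chosen with results known, so these counts describe it and test nothing.

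Per kb of exon, the order of mean levels in air livers was C3 (936.2 CPM per kb), C4b (185.2), C1qa (20), C1qb (14.0), C1qc (7.46), Cfp (5.3) and C3ar1 (0.126). Only C1qc and Cfp among neighbours in that order had overlapping libraries. In the benzene livers the order was the same, and C1qa (35.1) and C1qb (25.3) overlapped as well, as did C1qc (12.8) and Cfp (9.03). Within the benzene livers, replicate 4 was highest for C1qa, C1qb, C1qc and Cfp and lowest for C3 and C4b.

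**Figure D2:**
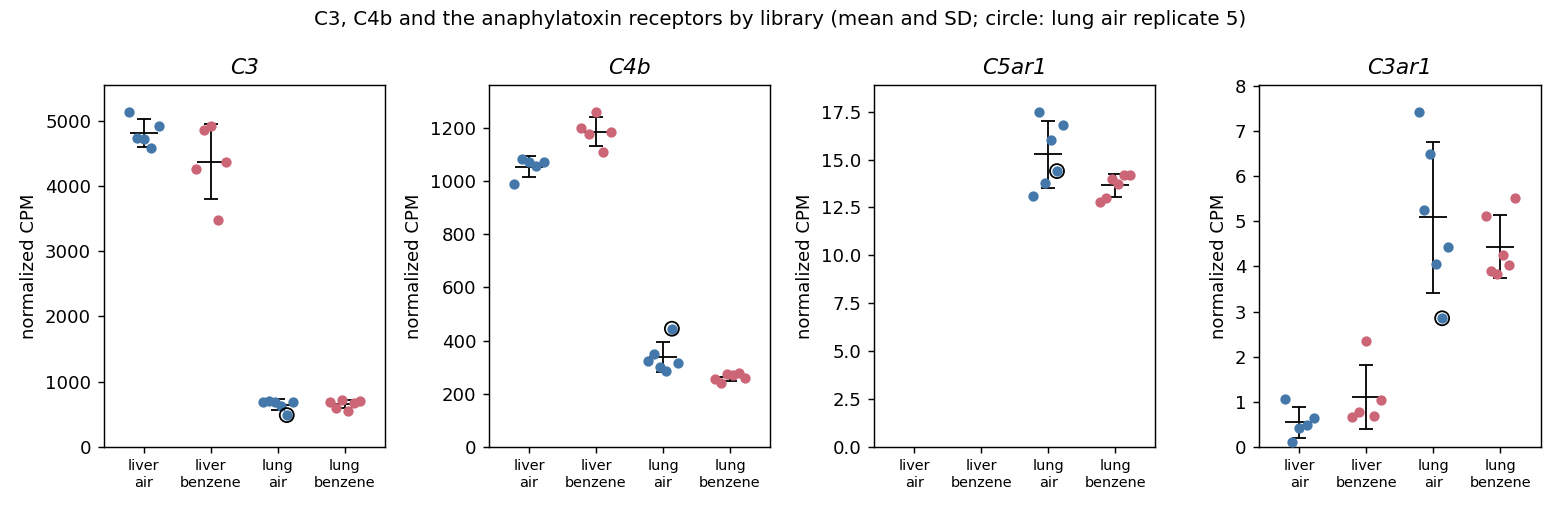
Normalized CPM of C3, C4b, C5ar1 and C3ar1 in each library (points), with the mean and SD of each group (bars); C5ar1 has no points in liver because only the lung table lists it. C3 overlapped between air and benzene in both tissues, and C4b was above every air library in benzene livers and below every air library in benzene lungs.

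In lung the called members were lower with benzene. C1qa ran from 76.4 to 334.8 CPM in the 6 air lungs (median 88.4) and from 58.0 to 100.1 in the 6 benzene lungs (median 69.9). The 334.8 was air replicate 5; the other 5 air lungs reached 98.3, and their range overlapped that of the benzene lungs. The log2 change was -0.56 ± 0.30 (limma adjusted p = 0.283), and without air replicate 5 it was -0.24 ± 0.11 (limma adjusted p = 0.155).

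For C1qb the air lungs held from 40.5 to 65.5 CPM (median 60.2) and the benzene lungs from 44.7 to 59.6 (median 48.7). Here air replicate 5 was the lowest of the 12, and of the benzene lungs only replicate 4 reached the range of the other 5 air lungs, which began at 57.7. The log2 change of -0.18 ± 0.12 did not pass (limma adjusted p = 0.358). Without air replicate 5 it was -0.28 ± 0.08 and did (limma adjusted p = 0.0208).

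C1qc was at 51.5 to 72.4 CPM in air lungs (median 56.5) and at 35.0 to 53.8 in benzene lungs (median 42.4). Benzene replicate 4 was the only benzene lung inside the air range. The mean fell from 58.9 ± 7.76 to 42.6 ± 6.54 (n = 6 and 6), a log2 change of -0.46 ± 0.11 (limma adjusted p = 0.0268). With air replicate 5 left out the change was -0.40 ± 0.10 (limma adjusted p = 0.00717). Leaving out benzene replicate 1 (adjusted p = 0.0605), 3 (0.0601), 5 (0.0751) or 6 (0.0688), or air replicate 1 (0.064), lost the call.

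Cfp was at 24.7 to 48.3 CPM in air lungs (median 28.8) and at 14.8 to 22.1 in benzene lungs (median 19.8). All 6 benzene lungs were below every air lung, and air replicate 5 was the highest. The mean fell from 31.5 ± 8.79 to 19.4 ± 2.79, a log2 change of -0.65 ± 0.16 (limma adjusted p = 0.0243). Without air replicate 5 the air mean was 28.2 ± 3.54 and the change -0.52 ± 0.11 (limma adjusted p = 0.00288). The fall did not pass without benzene replicate 1 (adjusted p = 0.0672), 5 (0.0616) or 6 (0.0594), nor without air replicate 1 (0.0531) or 2 (0.0555).

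C3 was at 485.6 to 703.1 CPM in air lungs (median 681.5) and at 552.3 to 711.5 in benzene lungs (median 676.7). Air replicate 5 was the lowest, and the groups overlapped with it and without it. The log2 change was 0.02 ± 0.11, with a 95% interval of -0.21 to 0.25 (limma adjusted p = 0.927), and -0.06 ± 0.07 without that library (limma adjusted p = 0.63).

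C4b was at 286.0 to 444.4 CPM in air lungs (median 320.0) and at 238.6 to 278.2 in benzene lungs (median 263.2). Every benzene lung lay below every air lung, and the highest value was that of air replicate 5. The log2 change was -0.35 ± 0.10 (limma adjusted p = 0.0589). Without air replicate 5 it was -0.26 ± 0.07 and passed (limma adjusted p = 0.0107).

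The receptor genes were low in lung. C5ar1, for the C5a receptor, was at 13.1 to 17.5 CPM in air lungs (median 15.2) and at 12.8 to 14.2 in benzene lungs (median 13.8). Its groups overlapped, and the log2 change was -0.15 ± 0.10, with a 95% interval of -0.36 to 0.06 (limma adjusted p = 0.383). C3ar1 was at 2.85 to 7.43 CPM in air lungs (median 4.84) and at 3.83 to 5.52 in benzene lungs (median 4.14). All benzene lungs lay inside the air range, and the log2 change was -0.12 ± 0.18, with a 95% interval of -0.52 to 0.27 (limma adjusted p = 0.701). Without air replicate 5 neither receptor passed (limma adjusted p = 0.308 for C5ar1 and 0.311 for C3ar1).

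Of the 8 members tested in lung, 2 were called, C1qc and Cfp, both lower, where 2.29% of 15706 genes were called lower and 5.67% either way. Without air replicate 5, C1qb, C1qc, Cfp and C4b were called, all 4 lower, where 7.02% of genes were called lower and 14.7% either way. With that library and 1 more left out, chosen after the data were seen, 3 to 5 members were called in each of the 11 fits. C1qc, Cfp and C4b were among them in all 11, where 1625 to 2951 of the 15706 genes were called. With all libraries kept, leaving out 1 of them gave 0 calls without air replicate 1 or benzene replicate 1, 5 or 6, and 1 call without air replicate 2 or benzene replicate 3. Over all genes, leaving out any 1 lung library gave 587 to 2302 calls.

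**Figure D3:**
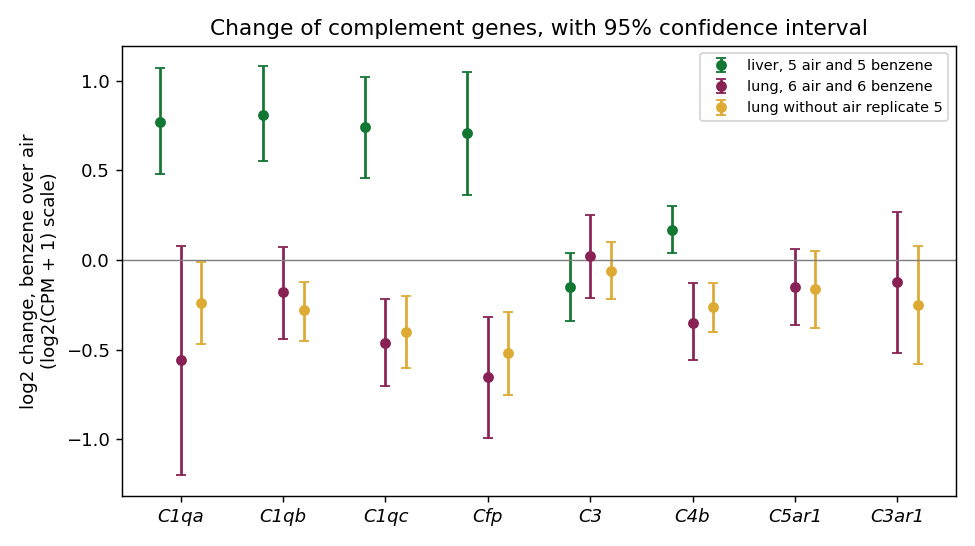
Log2 change of each member, benzene minus air on log2(CPM + 1), with its 95% interval, for liver (5 and 5 libraries), for lung (6 and 6 libraries) and for lung without air replicate 5. The 3 C1q chains and Cfp lie between 0.71 and 0.81 in liver and below 0 in lung, and the interval of C1qa in lung narrows without air replicate 5.

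Mean levels per kb of exon in benzene lungs ran from C3 (126.6 CPM per kb) through C1qa (71.9), C1qb (46.5), C4b (46.0), C1qc (22), Cfp (11.2) and C5ar1 (5.3) to C3ar1 (1.03). C1qb and C4b overlapped there and no other neighbours did. In air lungs without replicate 5 the order was the same, from C3 (131.6), C1qa (83.9), C1qb (56.5) and C4b (55.3) to C1qc (29.1), Cfp (16.2), C5ar1 (6.01) and C3ar1 (1.29), and with replicate 5 each pair of neighbours from C3 down to Cfp overlapped. As in liver, benzene replicate 4 was the highest benzene lung for C1qa, C1qb, C1qc and Cfp and the lowest for C3. The labels do not say whether liver and lung libraries of 1 number come from 1 animal.

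Whether the responses of the 2 tissues differed was tested in 1 fit over the 11266 genes tested in both. The liver change minus the lung change was 1.00 ± 0.18 for C1qb (limma adjusted p = 0.00286), 1.20 ± 0.18 for C1qc (0.000318) and 1.36 ± 0.24 for Cfp (0.00262). It was 0.52 ± 0.13 for C4b (limma adjusted p = 0.0394), a call lost in 17 of the 22 fits that each left out 1 library (adjusted p up to 0.0796). The 5 libraries whose removal kept it were liver benzene replicate 4 and lung air replicates 3, 4, 5 and 6. C1qa had a difference of 1.34 ± 0.37 that did not pass (limma adjusted p = 0.0798), and 1.01 ± 0.19 without lung air replicate 5 (0.00178). C3 had -0.17 ± 0.16, with a 95% interval of -0.49 to 0.16 (limma adjusted p = 0.611). So 4 of 6 members were called, all higher in liver, where 0.719% of genes were called higher and 1.41% either way. Without lung air replicate 5 it was 5 of 6, against 1.62% and 2.91%.

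The proportions of the 3 C1q chains were measured as shares of their summed level per kb. In 21 of the 22 libraries C1qa made up 43.5% to 53.8%, C1qb 30.5% to 39.5% and C1qc 14.2% to 21%. In air livers the mean shares of C1qa, C1qb and C1qc were 48.1%, 33.7% and 18.1%, and in benzene livers 47.7%, 34.7% and 17.6%. Benzene lungs had means of 50.9%, 33.3% and 15.8%. The sum of the chains, on the other hand, went from 34.6 to 47.3 CPM per kb in air livers up to 62.8 to 93.3 in benzene livers. It was 153.1 to 180.8 in the air lungs other than replicate 5 and 115.0 to 179.0 in benzene lungs, with overlap.

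Lung air replicate 5 was the exception. Its shares were 81.2% for C1qa, 9.38% for C1qb and 9.46% for C1qc, and its level of C1qa over that of C1qb, per kb, was 8.65 against 1.11 to 1.76 in the other 21 libraries. Relative to the mean of the other 5 air lungs it had 3.84 times the C1qa, 0.658 times the C1qb, 1.29 times the C1qc and 1.71 times the Cfp. C3 was at 0.718 times that mean, C4b at 1.41, C5ar1 at 0.933 and C3ar1 at 0.515. These ratios depend on the deposited scaling. In this library 1 read stood for 0.1499 CPM at 8.84 M reads. In air replicate 2, the nearest air lung in depth, it stood for 0.1117 at 8.91 M reads. In replicates 5 and 2, C4b had 2964 and 3120 reads, C1qc 483 and 487, Cfp 322 and 293, and C1qa 2233 and 758. The library's C1qa value rests on 2233 reads and its C1qb value on 270.

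**Figure D4:**
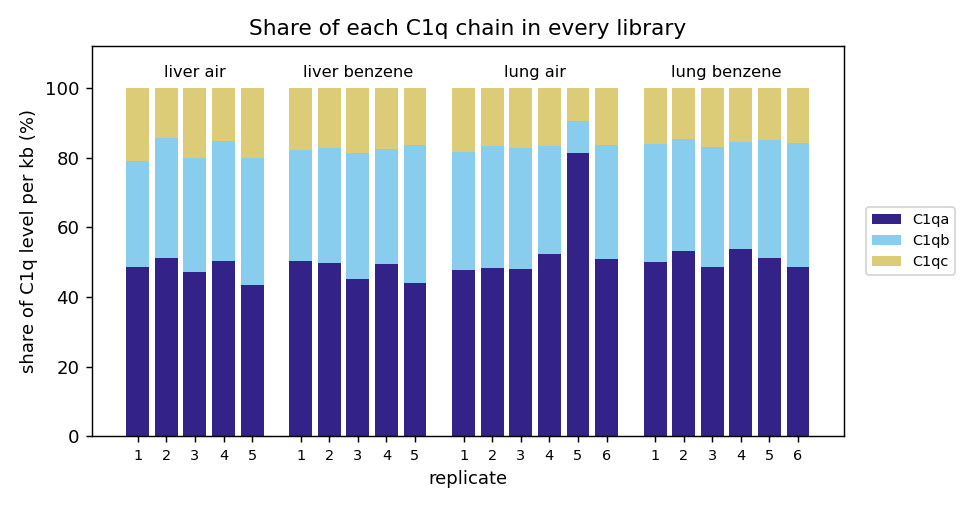
Share of C1qa, C1qb and C1qc in their summed level per kb of exon, 1 bar per library, grouped by tissue and treatment with replicate numbers below. Lung air replicate 5 has 81.2% C1qa, and the other 21 libraries have 43.5% to 53.8%.

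Markers of the cells that make C1q and properdin were read beside the members. In bulk tissue, a change in the number of cells of a type and a change in RNA per cell cannot be told apart. The list counts in liver stand beside 1.55% of all genes tested there being called either way. Of 11 Kupffer cell and resident macrophage markers tested in liver, 4 rose and 0 fell, with a median log2 change of 0.50. Their summed level went from 188.6 to 203.7 CPM in air to 286.3 to 320.4 in benzene. Clec4f, a lectin of Kupffer cells, rose from 29.4 ± 2.36 to 47.8 ± 6.2 (log2 change 0.67, limma adjusted p = 0.00101). Of 11 pan-macrophage markers 2 rose and 0 fell, with a median of 0.52 and sums of 159.9 to 175.8 in air and 220.4 to 227.8 in benzene. The lysosomal protease gene Ctss rose by 0.75 (limma adjusted p = 0.00371).

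Of the other marker lists read in liver, only the acute phase genes had calls. None of 10 neutrophil markers, among them S100a8 and Csf3r, was listed in the liver table, and of 8 dendritic cell markers only Zbtb46 was. The 11 hepatocyte markers tested had 0 calls, a median log2 change of -0.08 and sums of 119500.3 to 125233.4 CPM in air and 100973.2 to 112212.4 in benzene. Of 12 acute phase genes, which hepatocytes express in inflammation, 3 rose and 0 fell, with a median of 0.13. The part of these cells in the members' changes was not tested.

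To set C1q beside macrophage RNA in each library, the mean log2(CPM + 1) of the 22 macrophage markers listed in liver was subtracted from that of the 3 chains. The macrophage mean was 2.92 to 2.98 in air livers and 3.42 to 3.57 in benzene livers. The difference, C1q minus macrophage markers, was 1.00 to 1.42 in air (mean 1.18 ± 0.164) and 1.22 to 1.67 in benzene (1.40 ± 0.182), and the groups overlapped. In lung, over 23 markers, the difference was 1.24 to 1.57 in the air lungs other than replicate 5 and 0.87 to 1.49 in benzene lungs. Air replicate 5 had 2.23. The macrophage mean in lung was 4.59 to 4.72 in air, or 4.42 in replicate 5, and 4.51 to 4.65 in benzene.

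**Figure D5:**
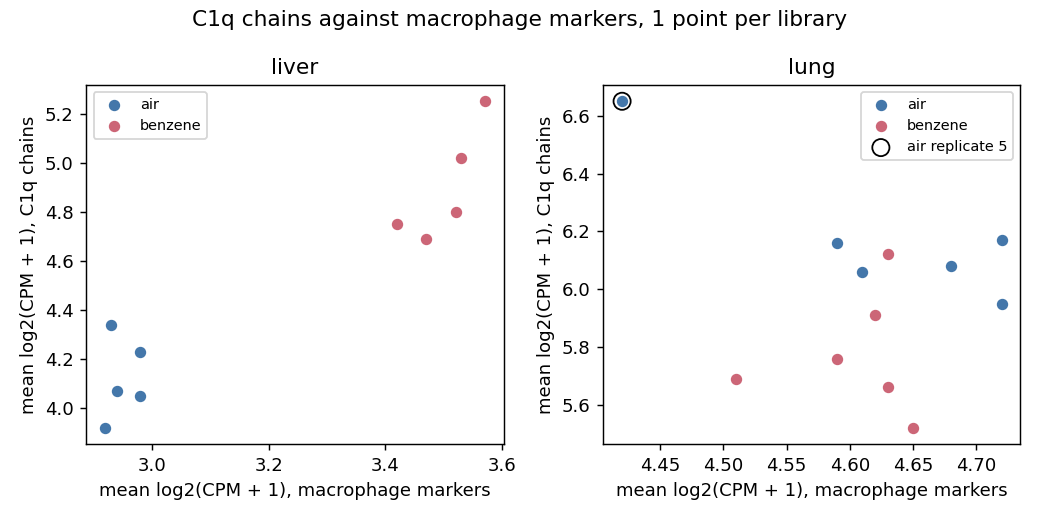
Mean log2(CPM + 1) of the 3 C1q chains against that of the macrophage markers, 1 point per library, in liver (22 markers) and lung (23 markers). In liver both means were higher in all 5 benzene libraries, while in lung the macrophage means of air and benzene overlapped and air replicate 5 lay apart.

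The lung marker lists are given first over all libraries and then without air replicate 5. Of all genes tested in lung, 5.67% were called either way with that library and 14.7% without it. Those called lower were 2.29% and 7.02%. List counts that grow without that library therefore go with a growth over all genes, and counts of 1 or 2 genes are no result about a list. Of 10 alveolar macrophage markers 6 rose and 0 fell (median log2 change 0.46), or 7 rose without that library, with sums of 602.5 to 767.3 CPM in air, or 602.5 to 676.2 without it, and 740.1 to 879.0 in benzene. Of 8 neutrophil markers 3 fell and 0 rose (median -0.51), or 6 fell without it, with sums of 380.3 to 561.2 in air, or 380.3 to 505.8 without it, and 244.2 to 302.0 in benzene. Of 8 monocyte markers 2 fell (median -0.25), or 3 without it, with sums of 1165.8 to 1618.1 in air, or 1359.1 to 1618.1 without it, and 1201.7 to 1445.2 in benzene. Neutrophils and monocytes are cells known to make properdin, and whether alveolar macrophages made C1q in these lungs was not tested. Ltf led the neutrophil sum, at 224.0 ± 30.3 CPM in air and 103.5 ± 10.8 in benzene over all libraries. Ace led the monocyte sum, at 1048.5 ± 136.1 and 961.3 ± 84.5, so each sum leans on 1 gene. Which cells expressed Ltf and Ace was not tested. None of the 8 neutrophil markers had a positive change with or without air replicate 5. Their count past the threshold changed with that 1 library, as did those of other lists.

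Of 8 dendritic cell markers 1 fell (median -0.26), or 3 without air replicate 5, with sums of 92.4 to 107.2 CPM in air, or 96.8 to 107.2 without it, and 80.9 to 97.9 in benzene. The 12 pan-macrophage markers had 0 calls (median -0.11), or 4 lower without it, with sums of 3539.4 to 7304.7 in air, or 6166.2 to 7304.7 without it, and 6948.9 to 7930.7 in benzene. Of 8 interstitial macrophage markers 0 passed (median -0.13), or 1 rose without it, with sums of 6089.9 to 8884.8 in air, or 7562.4 to 8884.8 without it, and 6441.0 to 7742.2 in benzene. Of 10 Kupffer cell and resident macrophage markers tested in lung 0 passed (median 0.24), or 1 rose and 1 fell without it, and Clec4f was not listed in the lung table. Cbr2 led the interstitial macrophage sum, at 7439.3 ± 919.6 CPM in air and 6684.3 ± 530.0 in benzene over all libraries. Lyz2 led the pan-macrophage sum, at 5509.1 ± 1419.4 and 6651.6 ± 330.8. Each of these 2 sums therefore follows mainly 1 gene, and which cells expressed it was not tested.

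Markers of cells other than leukocytes were read in the same way, beside the same shares of all genes. Of 8 squamous epithelium markers 7 rose with and without air replicate 5 (median 2.59 with it), with sums of 175.9 to 302.7 CPM in air, or 256.6 to 302.7 without it, and 2946.9 to 3294.9 in benzene. Of 8 club cell markers 4 fell, or 6 without it. Of 9 fibroblast markers 1 rose and 2 fell either way, and of 6 adipocyte markers 2 fell, or 3 without it. Of 8 alveolar type II markers, which define lung tissue here, 1 rose either way, and their sums were 32819.7 to 42413.0 CPM in the air lungs other than replicate 5, 83697.6 in that library and 28909.6 to 39763.8 in benzene. The part of any of these cells in the fall of Cfp and C1qc was not tested.

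The rest of the complement system was read from a list of 47 genes. In liver 38 were tested, of which 2 rose and 0 fell, with a median log2 change of 0.05, where 1.55% of all genes tested were called either way. C9, which forms the pore of the membrane attack complex, was at 378.9 to 389.6 CPM in air livers and 477.3 to 520.1 in benzene livers, without overlap. Its mean rose from 381.9 ± 4.53 to 505.7 ± 18.7, a log2 change of 0.40 ± 0.06 (limma adjusted p = 0.000867). Vsig4, the receptor for C3 fragments on Kupffer cells, rose from 5.75 ± 0.761 to 10.6 ± 1.75, a log2 change of 0.77 ± 0.14 (limma adjusted p = 0.0062). C1s1, for the protease that cleaves C4 downstream of C1q, was at 322.4 ± 17.2 and 344.1 ± 25.4 (limma adjusted p = 0.628).

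In lung 30 of the 47 were tested, of which 1 rose and 2 fell, with a median log2 change of -0.04, where 5.67% of all genes tested were called either way. With air replicate 5 left out it was 1 higher and 4 lower, with a median of -0.09, where 14.7% of all genes were called, so neither count is a result about the list. Clu, for clusterin, an inhibitor of the terminal pathway, fell from 416.8 ± 49.1 to 315.8 ± 23.1 (limma adjusted p = 0.0209, or 0.00395 without air replicate 5). Calr, for calreticulin, a chaperone that can bind C1q, fell from 475.7 ± 41.4 to 358.9 ± 14.4 (limma adjusted p = 0.00527, or 0.000402 without it). Without air replicate 5, Itgam, the alpha chain of complement receptor 3, and Cd93, a receptor of myeloid and endothelial cells, were also called lower (limma adjusted p = 0.0144 and 0.011). Cfd, for factor D, which cleaves factor B, was at 373.9 ± 95.3 and 297.6 ± 61.8 (limma adjusted p = 0.264, or 0.254 without air replicate 5).

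The genes closest to the C1q chains over the 10 liver libraries were H2-Aa, Selenbp2, Saa1, Orm2 and Cd74. Likeness was the root mean square difference, in log2 units from the gene's own air mean. It ran from 0.098 to 0.145 for these 5 against a median of 0.601 over 8360 genes. Genes were picked as the smallest values, so lying below the median follows from the choice, here and below. The measure includes the mean change with benzene, 0.74 to 0.82 for these 5, so a small value need not mean a pattern shared between single libraries. By the same measure Cfp was at 0.176 from the C1q chains, C4b at 0.472 and C3 at 0.72. Closest to C3 in liver were Pzp, Fmo5, Maob, Ak3 and Heatr1, at 0.035 to 0.05 against a median of 0.255. In lung, over 11 libraries without air replicate 5, Rbp4, Bola3, Ocel1, Acadvl and Macrod1 were closest to C1q, at 0.056 to 0.071 against a median of 0.324 over 11806 genes. There Cfp was at 0.232 and C4b at 0.183. Among the closest to C3 in lung were Mylk, Sipa1l2, Pxn and Heg1, at 0.039 to 0.058 against a median of 0.226.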

How the data were processed

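RNA was extracted with Trizol and sequenced from poly-A RNA as pairs of 150 bases, per the labels' protocols. The submitters' processing notes name fastp 0.20.0, STAR, edgeR 3.10 and the build GRCm38; not given in the sources used here are the counter, the annotation and any use of strand. The deposited values are a normalized signal headed CPM by the authors, with 1 column per library. Dividing by 1 factor per library gave whole reads, to within 0.01 of a read, for 100% of values. The authors' deposited means, change and p-value columns were not used.

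Genes reaching 1 CPM in at least 5 liver or 6 lung libraries were tested by limma-trend (limma 3.58.1, R 4.3.3) on log2(CPM + 1), two-sided, with p-values adjusted over all genes of a table. The tissue difference was a contrast over all 22 libraries. Positions and exon lengths came from GENCODE M21, in which 12255 of the 12259 liver and 15955 of the 15971 lung identifiers were found. Tables were made with Python 3.11.15.

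Text names the 9 members, other complement genes past the threshold, up to 4 genes of each marker list and the 5 genes most like C1q or C3. Of the genes this rule gives, 2 are not reported here. C4a, C1s1, Cfd, Ltf, Ace, Cbr2 and Lyz2 were added after their values were seen. Members and lists were chosen with earlier results of these data known. Alternatives were DESeq2 1.42.0 and edgeR 4.0.16 on recovered reads, TMM scaling, a pseudocount of 0.1, no filter, a replicate block, all 22 libraries in 1 fit, and leaving out each library; others were added after the data were seen. The tests were tried on simulated data. Reads were not counted by molecular identifiers, so read numbers cover counting error only.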

Additional observations from a re-analysis of the deposited data

Results flagged for a closer look

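In 30 groups of libraries, 1 per gene and group, 5 had a highest or lowest library far from the rest by Dixon's test, which chance gives in about 1 of 20 groups. Of these, 4 were lung air replicate 5, which had the highest C1qa (334.8 CPM) and Cfp (48.3 CPM) and the lowest C1qb (40.5 CPM) and C3 (485.6 CPM) of the air lungs. The fifth was C3ar1 in liver benzene replicate 3 (2.34 CPM, 30 reads).

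The response to benzene differed between tissues in 4 members by the test of the difference itself, with a liver change minus lung change, in log2 units, of 1.00 for C1qb, 1.20 for C1qc, 1.36 for Cfp and 0.52 for C4b.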

How the results depend on the processing

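The 6 liver, 8 lung and 6 tissue-difference results for members gave 420 values under the alternatives, not counting those added after the data were seen, of which 373 kept their side of the threshold, 40 lost the call, 7 gained it and 0 reversed a call. Of the 373, 3 uncalled values changed sign, all of them C3 in lung. C1qb and C1qc in liver passed in 17 of 17 alternatives, and C3 in none in either tissue. With all 22 libraries in 1 fit the liver count went from 4 to 2 (C1qa adjusted p = 0.271, Cfp 0.0657), and it was 4 when lung air replicate 5 was left out of that fit. Leaving out 1 library gave 3 to 4 members in liver, 0 to 4 in lung and 3 to 5 in the tissue difference. The labels do not say whether air and benzene libraries of 1 number are paired. Same-number correlations were -0.131 to 0.193 in liver and -0.364 to 0.0979 in lung, too few values to settle it. A replicate block took the lung count from 2 to 0, with adjusted p = 0.0949 for C1qc and 0.0856 for Cfp, and it was 2 under the block without lung air replicate 5. Cfp in liver was at 0.0636 and the tissue difference of C4b at 0.167 under the block. Liver Cfp lost its call in 9 of 17 alternatives (adjusted p 0.00303 to 0.115), and the C4b tissue difference in 18 of 28. C4b in lung was called with DESeq2 (0.0132), in 1 fit of all libraries (0.0219) and without air replicate 4 (0.0421). edgeR on recovered reads gave 4, 2 and 4 members in liver, lung and the tissue difference, and 4 in lung without air replicate 5.

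Over all genes, 186 were called in liver, with 197 by edgeR, 318 by DESeq2, 74 in 1 fit of all libraries, 303 in that fit without lung air replicate 5 and 99 to 271 when a library was left out. The lung count of 891 became 871 by edgeR, 1669 by DESeq2, 414 with a replicate block, 489 in 1 fit, 2262 by edgeR without air replicate 5, 587 to 2302 without 1 library and 1625 to 2951 without air replicate 5 and 1 more. For the tissue difference 159 became 150 by edgeR, 370 by DESeq2, 59 with a replicate block and 89 to 328 without 1 library. The cause of these shifts was not tested. Depth limits C3ar1 in liver, with 1 to 30 reads per library.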
